A study of Homo sapiens with 12 samples.

Results

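The genes described are 8 that are known for opposing or diverting the B-cell programme in Hodgkin lymphoma: the Notch receptors NOTCH1 and NOTCH2, their ligands JAG1 and JAG2, the Notch coactivator MAML2, the Notch target HES1, and the transcriptional antagonists ID2 and MSC. Every probe set whose platform annotation names 1 of these genes was taken, which gave 22 of the 54613 probe sets tested, for 8 of 19775 genes. JAG1 had 6 of them, NOTCH2 4, HES1 3, and MSC 1, while ID2, NOTCH1, JAG2 and MAML2 had 2 each. A further 2 probe sets are annotated to a member together with other genes, 1 to ID2 and ID2B and 1 to NOTCH2 and the NOTCH2NL genes, and were left out of the counts.

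The arrays hold RNA of L1236 and L428, which are established lines of classical Hodgkin lymphoma. The 4 groups, with 3 arrays each, were L1236 after 5-Aza-dC, untreated L1236, L428 after 5-Aza-dC, and untreated L428. The treated cells received 1 µM 5-Aza-dC for 24 h and were collected after a further 72 h without drug. No vehicle is named for the untreated cells, and the labels give no genetic change made in any group. 5-Aza-dC, or decitabine, is a cytidine analogue that is built into DNA, captures DNA methyltransferases and so lowers DNA methylation over following divisions. Each line stands for the tumour of 1 patient as grown in culture, and cell number, cycle and differentiation state were not measured beside the RNA.

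Notch receptors are cleaved when a ligand of the Jagged or Delta families on a neighbouring cell binds them. The freed intracellular part enters the nucleus, joins the DNA-binding protein RBPJ and a Mastermind coactivator such as MAML2, and switches on genes such as HES1, which encodes a repressor of the basic helix-loop-helix (bHLH) class. B-cell identity rests on the E proteins, bHLH factors encoded by TCF3, TCF4 and TCF12, together with EBF1 and PAX5. ID2 lacks the DNA-binding basic region and ties up E proteins in pairs that cannot bind DNA. MSC (musculin, also ABF-1) is a bHLH repressor that pairs with E proteins on DNA. Reed-Sternberg cells, the malignant cells of classical Hodgkin lymphoma, are known to express ID2, MSC and active Notch while having lost much of their B-cell programme.

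The promoters of HES1, JAG1 and ID2 are shown because HES1 is the direct Notch target of the set, and because JAG1 and ID2 rose in both lines after the demethylating drug when the arrays numbered 1 were left out. The sequences are the 250 bases before the RefSeq start of each gene in GRCh38.p14, 5′ to 3′ on the gene's own strand. For HES1, at chr3:194135898-194136147 on the plus strand, the capitals mark the word TGGGAA, the core of the known RBPJ binding site.
HES1: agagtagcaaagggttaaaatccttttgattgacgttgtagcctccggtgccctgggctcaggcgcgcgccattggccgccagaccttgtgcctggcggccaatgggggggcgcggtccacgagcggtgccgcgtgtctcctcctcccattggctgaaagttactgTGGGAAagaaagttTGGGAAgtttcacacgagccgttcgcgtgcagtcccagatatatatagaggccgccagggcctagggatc
For JAG1, at chr20:10674000-10674249 on the minus strand, and for ID2, at chr2:8681806-8682055 on the plus strand, the capitals mark each CG pair, whose cytosine DNA methyltransferases modify.
JAG1: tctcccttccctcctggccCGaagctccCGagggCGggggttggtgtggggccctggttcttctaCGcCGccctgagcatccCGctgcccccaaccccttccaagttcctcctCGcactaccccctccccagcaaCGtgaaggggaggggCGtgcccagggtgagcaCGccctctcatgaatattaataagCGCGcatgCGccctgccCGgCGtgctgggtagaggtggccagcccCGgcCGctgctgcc
ID2: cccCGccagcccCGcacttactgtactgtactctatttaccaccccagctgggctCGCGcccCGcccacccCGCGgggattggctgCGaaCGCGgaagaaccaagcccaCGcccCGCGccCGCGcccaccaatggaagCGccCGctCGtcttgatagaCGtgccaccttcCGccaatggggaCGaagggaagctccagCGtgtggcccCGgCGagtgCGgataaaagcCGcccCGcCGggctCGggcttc
The HES1 window holds TGGGAA at 2 places, starting 84 and 70 bases before the start of the gene. Searched on both strands, that word was found in 20.8% of 35116 RefSeq promoter windows of the same length. The ID2 window holds 29 CG pairs, more than 85.9% of those windows, whose median is 11. JAG1 has 17 CG pairs, more than 61.0% of the windows, and HES1 has 18. NOTCH1, NOTCH2, JAG2 and MAML2 have 33, 29, 38 and 12. The E-box word CANNTG, the kind of site that E proteins bind, occurs in 61.8% of the windows and was found once in the ID2 window, at 2 places in the JAG2 and MAML2 windows, and not in these letters of the other windows. DNA methylation was not measured, and these letters are a description of the windows and not evidence of binding. The RefSeq table used held 7 of the 8 genes and no entry for MSC.

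Levels below are log2 signals, which can be compared between arrays for 1 probe set but not between probe sets, and SDs are over 3 arrays. A change is a difference of log2 means ± SE from limma, and a call is an adjusted p under 0.05, with Benjamini-Hochberg adjustment over all 54613 probe sets and a two-sided test. The array medians lay between 3.01 and 3.08, and 5 of the 22 probe sets stayed at or below 3.5 on every array, so they carry little signal. The first array of each treated group stood apart from its partners: its deviations from the group means had an SD of 0.350 in L1236 and 0.385 in L428, against 0.162 to 0.313 on the other arrays. The labels name no batch. Over probe sets with a mean at or above the median, deviations from the group means correlated at r of 0.00715 to 0.435 in all 6 pairs of arrays numbered 1, and at -0.407 to 0.0545 in the 24 pairs of an array numbered 1 with an array of another number and group, 22 of them below 0. The source name of untreated L1236 array 1 reads as treated L428, while its description reads untreated L1236. The description was used, and this array correlated best with untreated L1236 array 3. Treated L428 array 1 correlated best with untreated L428 array 3. For these reasons the members' calls are given with all arrays and again without the 4 arrays numbered 1, which leaves 2 arrays a group. Those 4 arrays stood apart in these same values, so leaving them out narrows the spread within groups. Adjusted p in that fit can therefore be too small, and its calls are descriptions of arrays 2 and 3. Calls over all probe sets went from 4927 to 12713 in L1236 and from 1647 to 9956 in L428. The Hodgkin markers had a mean level over 12 genes of 9.91 to 10.5 in treated L1236, 8.73 to 8.98 in untreated L1236, 10.2 to 10.5 in treated L428 and 9.53 to 10.0 in untreated L428. Among them TRAF1, a signalling adaptor, lay between 1.94 and 2.29 on all L1236 arrays and between 10.5 and 12.1 on all L428 arrays, and the chemokine gene CCL22 lay between 3.06 and 3.13 in untreated L428.

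**Figure D1:**
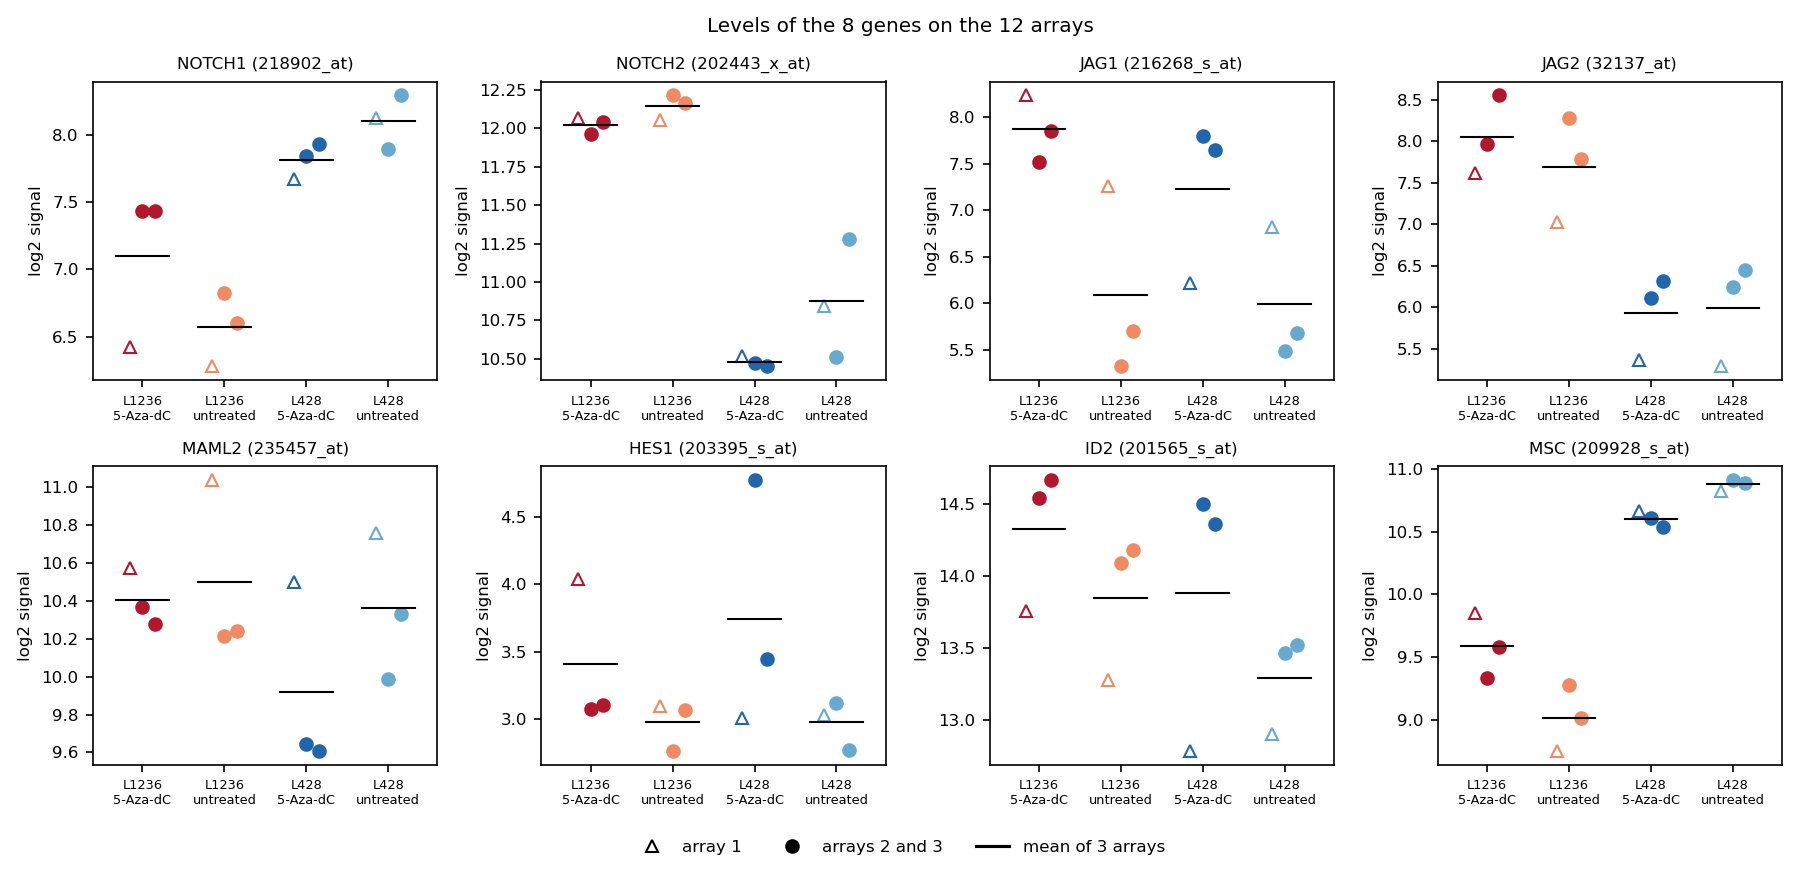
Log2 signal of the probe set with the highest mean for each of the 8 genes on the 12 arrays. Triangles are the arrays numbered 1, dots the other arrays, and bars the means of 3. NOTCH2 and JAG2 are higher and MSC and NOTCH1 lower in untreated L1236 than in untreated L428, and the JAG1 and ID2 triangles stand away from the dots in most groups.

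With all arrays, more members differed between the lines than after the drug in either line. The same order held over all probe sets, of which 21.1% were called between the untreated lines, 9.02% in L1236 and 3.02% in L428. Untreated L1236 had higher NOTCH2 and JAG2 and lower NOTCH1 and MSC than untreated L428, by 1.16 to 1.88 on the log2 scale. After 5-Aza-dC, MSC was the only member called, higher in L1236 by 0.57 ± 0.15, and no member was called in L428. In the fit without arrays numbered 1, JAG1 and ID2 rose in both lines, JAG1 216268_s_at by 2.18 in L1236 and 2.14 in L428. HES1 203394_s_at rose in both lines too, from low untreated levels of 2.40 to 2.55. The brightest HES1 probe set, 203395_s_at, was not called in L1236 in that fit. NOTCH1 rose in L1236, and the MSC call was lost. In that fit both MAML2 probe sets fell in L428, and 1 of them rose in L1236. Of the 22 probe sets, 1 was called higher and 0 lower in L1236, where 4.58% of all probe sets were higher and 4.44% lower. A count of 1 in 22 is too small to tell the members' share from that of all probe sets. In L428 0 were called by limma, with 2 at an unadjusted p under 0.05, beside 1.82% of all probe sets higher and 1.2% lower. On arrays 2 and 3 alone, 7 probe sets of 5 genes were higher and 0 lower in L1236, beside 10.7% and 12.5% of all probe sets. In L428, 6 were higher and 2 lower, of 4 genes, beside 8.46% and 9.77%. The median change of the 22 was 0.16 in L1236 and -0.06 in L428 with all arrays, and 0.16 and -0.06 without the arrays numbered 1. Leaving out single arrays changed these counts too. In L1236 the count was 2 without untreated L1236 array 1 or without treated L1236 array 1, and in L428 it was 1 without untreated L428 array 2, when NOTCH2 202443_x_at was lower by -0.58 (adjusted p = 0.0489).

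**Figure D2:**
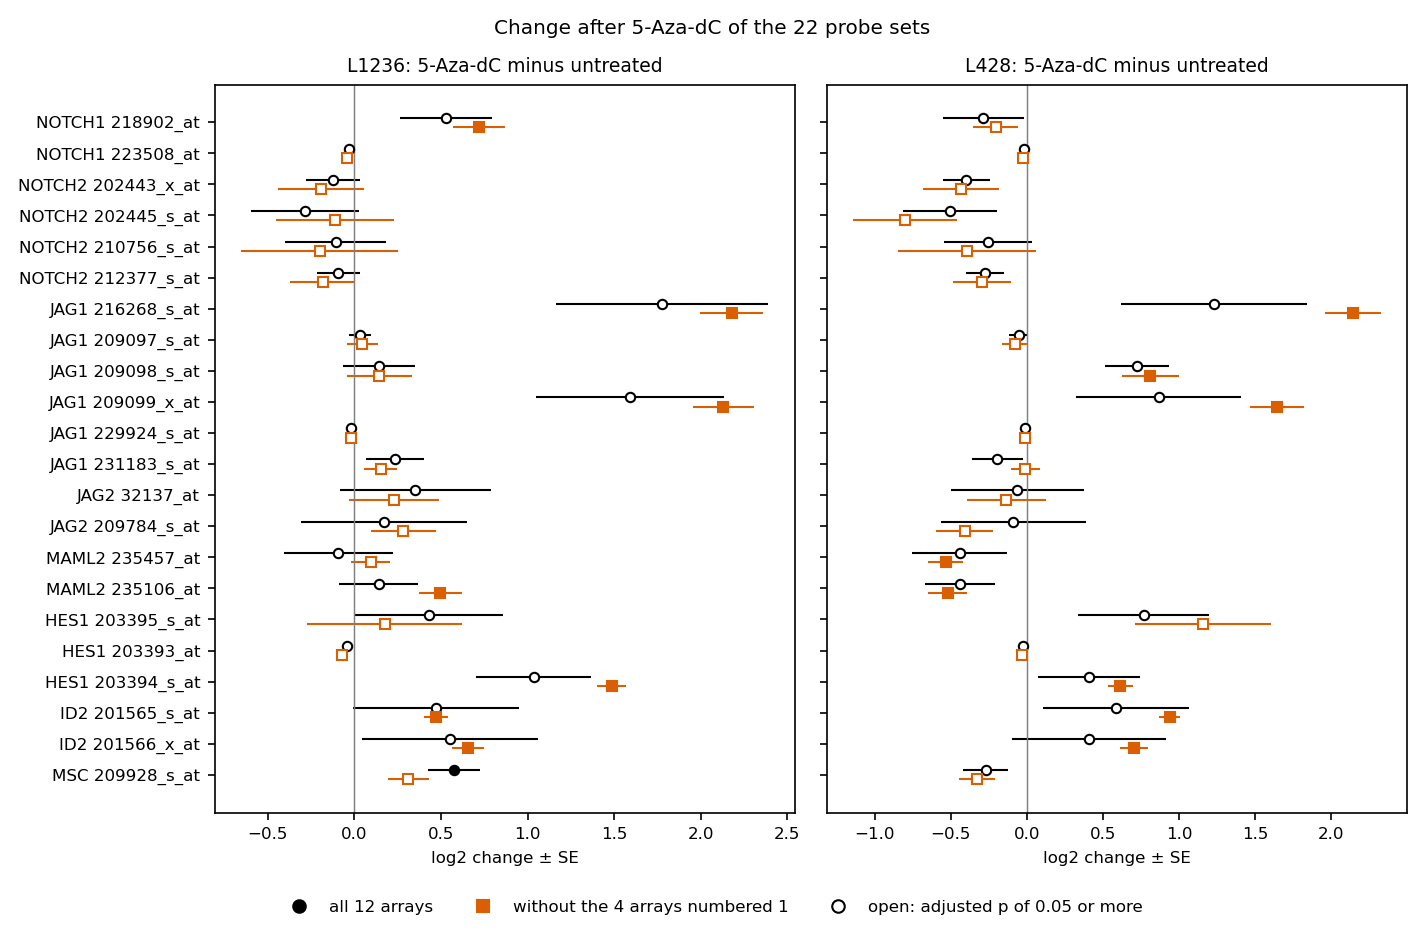
Log2 change ± SE after 5-Aza-dC of the 22 probe sets in L1236 and in L428. Circles are fits with all 12 arrays and squares are fits without the 4 arrays numbered 1, filled where the adjusted p is under 0.05. MSC in L1236 is the only filled circle, while 7 squares are filled in L1236 and 8 in L428.

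Among the receptors, NOTCH1 was lower in untreated L1236 than in untreated L428, and was not called after treatment with all arrays. Probe set 218902_at read 6.42, 7.43 and 7.44 on the treated L1236 arrays, against 6.28, 6.82 and 6.60 on the untreated L1236 arrays. It read 7.67, 7.84 and 7.93 on the treated L428 arrays, against 8.12, 7.89 and 8.29 on the untreated L428 arrays. Treated L1236 array 1 lay among the untreated L1236 arrays and the other 2 lay above all of them, while in L428 the groups overlapped. The change was 0.53 ± 0.27 in L1236 (limma adjusted p = 0.248) and -0.29 ± 0.27 in L428, and neither was called. Without treated L1236 array 1 alone, NOTCH1 rose in L1236 by 0.87 (adjusted p = 0.0117), and without all arrays numbered 1 by 0.72 ± 0.15 (adjusted p = 0.0248). The groups ordered as untreated L428 (8.10 ± 0.20), treated L428 (7.81 ± 0.13), treated L1236 (7.10 ± 0.58) and untreated L1236 (6.57 ± 0.27), and the neighbours within each line were not separated by a call. The other NOTCH1 probe set, 223508_at, lay between 2.29 and 2.39 on all arrays.

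NOTCH2 was higher in untreated L1236 than in untreated L428. Probe set 202443_x_at read 12.07, 11.96 and 12.04 in treated L1236, against 12.06, 12.22 and 12.17 in untreated L1236. In L428 it read 10.52, 10.47 and 10.45 after treatment, against 10.85, 10.51 and 11.28 untreated. Every L1236 array was above every L428 array, and treated and untreated arrays overlapped within each line. In order, the means were 12.15 ± 0.08 in untreated L1236, 12.02 ± 0.06 in treated L1236, 10.88 ± 0.39 in untreated L428 and 10.48 ± 0.04 in treated L428. The responses were -0.12 ± 0.16 in L1236 and -0.40 ± 0.16 in L428 (adjusted p = 0.246), which no call separates from 0. All 4 NOTCH2 probe sets had negative changes in both lines, between -0.09 and -0.29 in L1236 and between -0.26 and -0.51 in L428, and none was called. The suffix _x_at marks probes that may bind transcripts of other genes, and the NOTCH2NL genes are near-identical copies of part of NOTCH2. The probe sets 212377_s_at and 210756_s_at gave the same order of the lines.

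Of the ligands, JAG1 had the greatest fitted differences after treatment among the members, and wide spread within groups. Probe set 216268_s_at read 8.24, 7.52 and 7.86 in treated L1236, against 7.26, 5.32 and 5.70 in untreated L1236. The L428 values were 6.22, 7.81 and 7.65 after treatment, against 6.82, 5.49 and 5.68 untreated. All treated L1236 arrays were above all untreated L1236 arrays, whereas in L428 treated array 1 lay below untreated array 1. With all arrays the change was 1.78 ± 0.61 in L1236 (adjusted p = 0.117) and 1.23 ± 0.61 in L428 (adjusted p = 0.382). Without the arrays numbered 1 it was 2.18 ± 0.18 in L1236 (adjusted p = 0.0013) and 2.14 ± 0.18 in L428 (adjusted p = 0.00199), a rise in both lines. Leaving out untreated L1236 array 1 alone was enough for the L1236 call, at 2.36 (adjusted p = 0.0448).

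A second JAG1 probe set, 209099_x_at, gave 7.39, 7.55 and 7.24 in treated L1236, against 6.87, 5.25 and 5.28 in untreated L1236. In L428 it gave 6.18, 7.10 and 6.78 after treatment, against 6.87, 5.13 and 5.46 untreated. Again the treated L1236 arrays were all above the untreated ones, and the L428 groups overlapped through the arrays numbered 1. Its changes were 1.59 ± 0.54 in L1236 (adjusted p = 0.114) and 0.87 ± 0.54 in L428 (adjusted p = 0.520), and 2.13 and 1.64 without the arrays numbered 1 (adjusted p = 0.00129 and 0.0041). Another, 209098_s_at, stayed between 3.30 and 4.41. In L428 its treated arrays (3.85, 3.95 and 4.41) were all above its untreated ones (3.30, 3.43 and 3.30), with a change of 0.72 ± 0.21 (adjusted p = 0.117). The other 3 JAG1 probe sets were between 1.98 and 3.40 on all arrays and near the array medians or below. For 216268_s_at the means were 7.87 ± 0.36 in treated L1236, 7.22 ± 0.87 in treated L428, 6.09 ± 1.03 in untreated L1236 and 6.0 ± 0.72 in untreated L428, and the untreated lines differed by 0.10 ± 0.61.

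JAG2, the other Jagged ligand, separated the lines and showed no call after treatment. Probe set 32137_at read 7.62, 7.97 and 8.56 in treated L1236, against 7.03, 8.28 and 7.79 in untreated L1236. In L428 it read 5.37, 6.12 and 6.31 after treatment, against 5.29, 6.25 and 6.45 untreated. Every L1236 array was above every L428 array, and the treated and untreated arrays were interleaved within each line. The change was 0.35 ± 0.44 in L1236 and -0.06 ± 0.44 in L428, and 209784_s_at gave 0.17 ± 0.48 and -0.09 ± 0.48. The means of 32137_at were 8.05 ± 0.47 in treated L1236, 7.70 ± 0.63 in untreated L1236, 6.0 ± 0.62 in untreated L428 and 5.93 ± 0.50 in treated L428.

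MAML2, the coactivator, was not called between the untreated lines or after treatment with all arrays. Probe set 235457_at read 10.57, 10.37 and 10.28 in treated L1236, against 11.04, 10.22 and 10.24 in untreated L1236. The L428 values were 10.50, 9.64 and 9.61 after treatment, against 10.76, 9.99 and 10.33 untreated. In each group array 1 was the highest, and the treated and untreated arrays overlapped in both lines. Its means were 10.50 ± 0.47 in untreated L1236, 10.41 ± 0.15 in treated L1236, 10.36 ± 0.39 in untreated L428 and 9.92 ± 0.50 in treated L428. Probe set 235106_at read 6.79, 6.90 and 7.0 in treated L1236, against 7.36, 6.30 and 6.60 in untreated L1236. It read 6.41, 6.5 and 6.41 on the treated L428 arrays, against 6.69, 7.08 and 6.87 on the untreated L428 arrays, all treated values being lower. Its change in L428 was -0.44 ± 0.23 (adjusted p = 0.411). Once the arrays numbered 1 were left out, both MAML2 probe sets fell in L428, by 0.52 ± 0.13 and 0.53 ± 0.11 (adjusted p = 0.0495 and 0.035), and 235106_at rose in L1236 by 0.50 ± 0.13 (adjusted p = 0.048).

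HES1, the Notch target, was low in both lines. The probe set with the highest mean, 203395_s_at, read 4.04, 3.08 and 3.10 in treated L1236, against 3.10, 2.76 and 3.07 in untreated L1236. In L428 it read 3.01, 4.77 and 3.44 after treatment, against 3.03, 3.12 and 2.77 untreated. A single treated array in each line, array 1 in L1236 and array 2 in L428, was well above the rest, and the groups overlapped in both lines. Its means were 3.74 ± 0.92 in treated L428, 3.41 ± 0.55 in treated L1236, and 2.98 in both untreated lines (SD 0.18 in L428 and 0.19 in L1236). Probe set 203394_s_at read 2.68, 4.09 and 3.93 in treated L1236, against 2.55, 2.54 and 2.50 in untreated L1236. The L428 values were 2.41, 3.12 and 2.93 after treatment, against 2.41, 2.42 and 2.40 untreated. Treated arrays 2 and 3 were above every untreated array in each line, and treated array 1 was close to the untreated level, so that the groups overlapped in L428 alone. The change was 1.04 ± 0.33 in L1236 (adjusted p = 0.0961) and 0.41 ± 0.33 in L428. In the fit without arrays numbered 1, it rose by 1.49 ± 0.08 in L1236 (adjusted p = 3.9e-04) and by 0.61 ± 0.08 in L428 (adjusted p = 0.00831). Without treated L1236 array 1 alone the L1236 rise was 1.48 (adjusted p = 0.00119). The brightest HES1 probe set, 203395_s_at, was not called in L1236 in the fit without arrays numbered 1. The remaining HES1 probe set, 203393_at, stayed between 2.31 and 2.45, and the HES1 probe sets did not order the arrays alike.

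ID2, the E-protein antagonist, read high on every array. Probe set 201565_s_at read 13.76, 14.54 and 14.67 in treated L1236, against 13.28, 14.09 and 14.18 in untreated L1236. In L428 it read 12.78, 14.50 and 14.36 after treatment, against 12.90, 13.46 and 13.52 untreated. In each group array 1 was the lowest, by 0.59 to 1.65 below the mean of the other 2, and the treated and untreated groups overlapped in both lines. Between arrays of the same number, treated minus untreated was 0.48, 0.45 and 0.49 in L1236, and -0.12, 1.04 and 0.84 in L428. With all arrays the change was 0.47 ± 0.48 in L1236 (adjusted p = 0.502) and 0.59 ± 0.48 in L428 (adjusted p = 0.558). Without the arrays numbered 1, ID2 rose by 0.47 ± 0.07 in L1236 (adjusted p = 0.00847) and by 0.94 ± 0.07 in L428 (adjusted p = 0.00139). The second probe set, 201566_x_at, then rose by 0.65 ± 0.09 in L1236 and by 0.70 ± 0.09 in L428 (adjusted p = 0.00663 and 0.00705). The means of 201565_s_at were 14.32 ± 0.49 in treated L1236, 13.88 ± 0.95 in treated L428, 13.85 ± 0.50 in untreated L1236 and 13.30 ± 0.34 in untreated L428, and no neighbours in this order were separated beyond their spread. With arrays numbered 1 left out, 201565_s_at was higher in untreated L1236 than in untreated L428 by 0.64 ± 0.07 (adjusted p = 0.00215). Probe set 201566_x_at was not called between the untreated lines in that fit.

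MSC, the bHLH repressor, was called higher in treated L1236 in the main fit of all arrays. Its level was higher on every L428 array than on any L1236 array. Its probe set 209928_s_at read 9.85, 9.33 and 9.58 in treated L1236, against 8.75, 9.28 and 9.02 in untreated L1236. The L428 values were 10.66, 10.61 and 10.54 after treatment, against 10.82, 10.91 and 10.89 untreated. All treated L1236 arrays were above all untreated L1236 arrays, and all treated L428 arrays were below all untreated L428 arrays. The rise in L1236 was 0.57 ± 0.15 (adjusted p = 0.0456), and the change in L428 was -0.27 ± 0.15 (adjusted p = 0.442). The L1236 call stood only without untreated L1236 array 2 or treated L1236 array 2 (adjusted p = 0.0305 and 0.0343) when single arrays were left out, and was lost in the other 10 of 12 cases, with adjusted p up to 0.132. It was lost as well in a fit of the L1236 arrays alone (adjusted p = 0.184). The same held with the array number as a block, either within each line or shared by both lines. Once the arrays numbered 1 were left out, the change was 0.31 (adjusted p = 0.140). The value stayed positive under all 24 settings tried. The order of means was 10.87 ± 0.05 in untreated L428, 10.60 ± 0.06 in treated L428, 9.59 ± 0.26 in treated L1236 and 9.01 ± 0.26 in untreated L1236.

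The difference between the responses, L1236 minus L428, was tested for every probe set. With all arrays 0 of 22 were called by limma, with 1 at an unadjusted p under 0.05, beside 1.42% of all probe sets higher and 1.15% lower. That probe set was MSC, with a difference of 0.85 ± 0.21 (unadjusted p = 0.00307, adjusted p = 0.0831). Without the arrays numbered 1 there were 3 higher and 1 lower, beside 6.95% and 7.36% of all probe sets. The higher ones were HES1 203394_s_at at 0.87 ± 0.12 (adjusted p = 0.0113), NOTCH1 218902_at at 0.93 ± 0.21 (adjusted p = 0.0494) and MAML2 235106_at at 1.02 ± 0.18 (adjusted p = 0.0236). The lower one was ID2 201565_s_at at -0.47 ± 0.10 (adjusted p = 0.0405). The count was 1 without untreated L1236 array 1, namely MAML2 235106_at, and 2 without treated L1236 array 1, namely the HES1 and NOTCH1 probe sets. For JAG1 216268_s_at the difference was 0.55 ± 0.87, an interval wide enough to hold sizeable differences of either sign.

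Between the untreated lines, 8 of the 22 probe sets were called, 6 higher and 2 lower in L1236, beside 11.2% of all probe sets higher and 9.89% lower. All 4 NOTCH2 probe sets were higher in L1236: 212377_s_at by 1.32 ± 0.13 (adjusted p = 7.09e-05), 202443_x_at by 1.27 ± 0.16 (adjusted p = 3.72e-04), 210756_s_at by 1.60 ± 0.29 (adjusted p = 0.00369) and 202445_s_at by 1.16 ± 0.31 (adjusted p = 0.0273). The probe set shared by NOTCH2 and the NOTCH2NL genes differed by 1.26 ± 0.17 (adjusted p = 6.8e-04). Both JAG2 probe sets were higher in L1236, 32137_at by 1.70 ± 0.44 (adjusted p = 0.0218) and 209784_s_at by 1.88 ± 0.48 (adjusted p = 0.0206). MSC was lower in L1236 by -1.86 ± 0.15 (adjusted p = 2.28e-05), and NOTCH1 218902_at by -1.53 ± 0.27 (adjusted p = 0.00286). These 2 and NOTCH2 212377_s_at, 202443_x_at and 210756_s_at kept their calls when any 1 array was left out. Both JAG2 calls were lost without untreated L428 array 1, untreated L1236 array 2 or untreated L1236 array 3, with adjusted p of 0.0524 to 0.0807. The call of NOTCH2 202445_s_at was lost without any 1 untreated L1236 array and without untreated L428 array 1 or 2, with adjusted p up to 0.0765. On arrays 2 and 3 alone, there were 5 higher and 3 lower, beside 13.9% and 13% of all probe sets. MSC (-1.75), NOTCH1 (-1.38), both JAG2 and NOTCH2 202443_x_at and 212377_s_at were still called, NOTCH2 210756_s_at was not (adjusted p = 0.0709), and neither was 202445_s_at, while ID2 201565_s_at (0.64) and MAML2 235106_at (-0.52) were added. Each line is 1 culture source, so these differences describe the 2 lines.

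**Figure D3:**
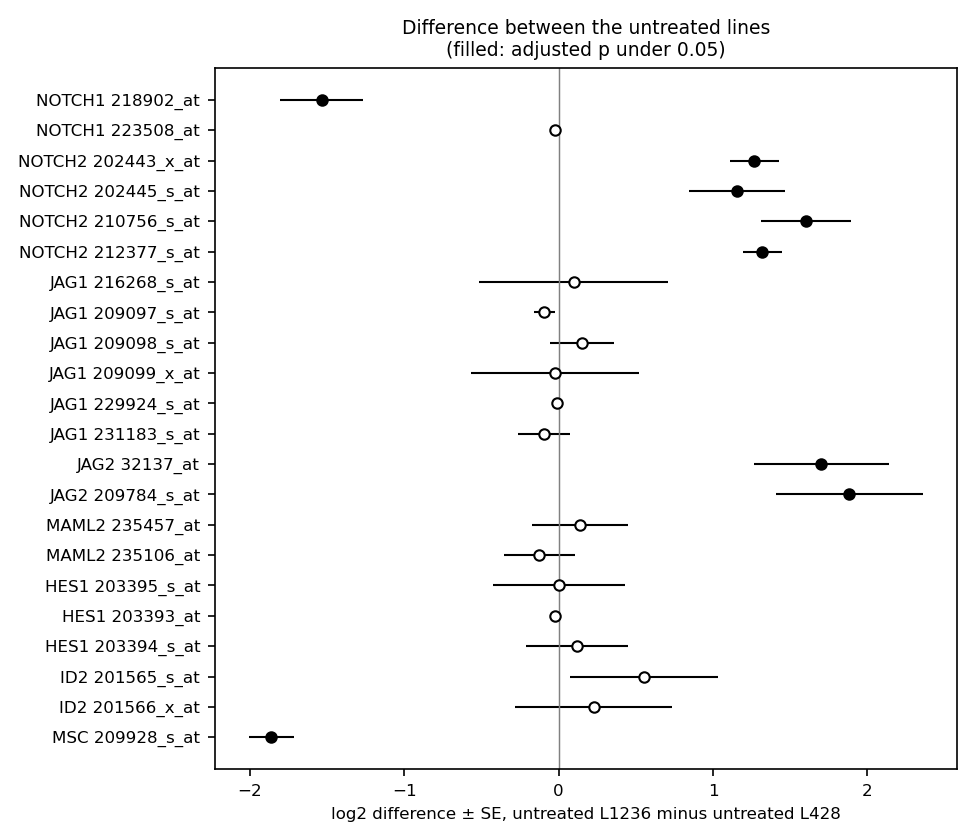
Log2 difference ± SE between untreated L1236 and untreated L428 for the 22 probe sets, with positive values higher in L1236 and filled points for an adjusted p under 0.05. The NOTCH2 and JAG2 points lie between 1.16 and 1.88, MSC at -1.86 and NOTCH1 218902_at at -1.53.

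Other genes of the Notch pathway were read from a list of 29 measured receptors, ligands, glycosyltransferases, proteases and ubiquitin ligases. Each gene of this and the following lists is read from its brightest probe set, and its counts stand beside those of the brightest probe sets of all 19775 genes. Of all genes, 7.41% were higher and 4.99% lower in L1236 after 5-Aza-dC, with a median change of -0.03, and 2.84% were higher and 1.02% lower in L428, with a median of -0.02. Of the 29, 6 were higher and 1 lower in L1236, with a median of 0.25, and 2 were higher and 0 lower in L428, with a median of 0.04. NOTCH4, a receptor known from endothelial cells, rose in both lines, and with all arrays it was the only gene of the Notch, bHLH and B-cell lists to do so. It read 6.34, 7.46 and 7.11 in treated L1236, against 3.63, 4.74 and 4.54 in untreated L1236. In L428 it read 7.50, 8.24 and 8.21 after treatment, against 5.21, 5.58 and 5.56 untreated. All treated arrays were above all untreated arrays of their line, and the rises were 2.67 ± 0.37 in L1236 and 2.53 ± 0.37 in L428. With any 1 array left out its adjusted p was at most 0.0152 in L1236 and 0.0452 in L428.

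In L1236 the other leading rises of that list were MIB2, LFNG and ITCH. MIB2, a ubiquitin ligase that acts on Notch ligands, rose by 2.72, with 6.96, 7.59 and 7.95 on treated L1236 arrays, against 4.85, 4.73 and 4.76 on untreated L1236 arrays. LFNG, a glycosyltransferase that alters how Notch responds to its ligands, rose by 2.27, with 6.07, 6.06 and 5.83 on treated L1236 arrays, against 4.03, 3.59 and 3.54 on untreated L1236 arrays. The treated and untreated arrays did not overlap for either gene. ITCH, a ubiquitin ligase, rose by 0.97. The single lower gene, named after its value was seen, was NCSTN, which encodes a subunit of the gamma-secretase that cleaves Notch, at -0.58. Its call was lost without untreated L1236 array 2 or 3 (adjusted p up to 0.0654) and without the arrays numbered 1 (adjusted p = 0.0624). In L428 the other rise was DTX3L, a ubiquitin ligase of the Deltex family, by 2.74 ± 0.25. It read 10.95, 11.94 and 11.83 in treated L428, against 8.80, 8.94 and 8.74 in untreated L428, with no overlap. In L1236 the DTX3L change was 0.94 ± 0.25 (adjusted p = 0.0501), and on arrays 2 and 3 alone it rose there too, by 1.14 ± 0.09 (adjusted p = 0.00121).

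The responses of MIB2, LFNG and DTX3L differed between the lines, by 2.14, 2.08 and -1.80 for L1236 minus L428. These calls were lost when some single arrays were left out, in 9, 7 and 10 of 12 cases, with adjusted p up to 0.0761, 0.0747 and 0.0926. For DTX3L they stood only without treated L428 array 1 or treated L1236 array 1, and for MIB2 also without treated L428 array 3. For LFNG they were lost without array 2 of any group, array 3 of either L1236 group or treated L428 array 3. With arrays numbered 1 left out, the list gave 12 higher and 4 lower in L1236, beside 15.6% and 16.5% of all genes, and 8 higher and 2 lower in L428, beside 13% and 12.9%. Of the treatment calls named from this and the following Notch, bHLH and B-cell lists with all arrays, those of NCSTN and LYN were lost in that fit and the others held. Leaving out treated L1236 array 1 gave 12 calls in L1236, leaving out untreated L1236 array 3 gave 4, and leaving out treated L428 array 1 gave 5 in L428.

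The second Notch list held 19 measured nuclear factors and target genes. In L1236, 6 were higher and 0 lower, beside 7.41% and 4.99% of all genes, with a median change of 0.09 against -0.03. In L428 0 were called by limma, beside 2.84% and 1.02% of all genes, with 6 at an unadjusted p under 0.05 and a median of 0.07 against -0.02. With the array number as a block, 1 gene of this list was called in L428, namely CCND1, a cyclin gene, which rose by 2.06 ± 0.27 (adjusted p = 0.0417). IL2RA, which encodes a chain of the interleukin-2 receptor, rose by 4.73 in L1236, with 7.90, 9.89 and 9.96 on treated arrays, against 5.25, 4.18 and 4.12 on untreated L1236 arrays. HEY1, a repressor related to HES1, rose by 2.49 in L1236, with 9.39, 10.52 and 10.52 on treated arrays, against 7.63, 7.77 and 7.56 on untreated L1236 arrays. The treated arrays were above the untreated ones for both genes, and HEY1 kept its call with any 1 array left out. In L428, HEY1 read 8.68, 9.32 and 9.57 after treatment, against 7.92, 8.36 and 8.38 untreated. All treated values were higher, and it was not called with all arrays. Both HEY1 and IL2RA rose in L428 when the arrays numbered 1 were left out, by 1.07 ± 0.11 and 3.15 ± 0.09 (adjusted p = 0.00314 and 8.11e-05).

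HES4 and HES6, relatives of HES1, rose in L1236 by 1.67 and 1.10. When the arrays numbered 1 were left out, HES4 rose in L428 too, by 1.29 ± 0.07 (adjusted p = 5.67e-04), and HES6 was not called there. The IL2RA call was lost without untreated L1236 array 3 or treated L1236 array 2 or 3, with adjusted p up to 0.054. The HES4 call was lost without any 1 untreated L1236 array or treated array 2 or 3 of L1236, and that of HES6 without any 1 untreated L1236 array or treated L1236 array 2, with adjusted p up to 0.09 and 0.0866. RBPJ, the DNA-binding partner of Notch, was not called in either line with all arrays (0.19 ± 0.11 in L1236 and -0.25 ± 0.11 in L428). It was called in both lines, in opposite directions, when the arrays numbered 1 were left out. The changes were then 0.29 ± 0.05 in L1236 and -0.33 ± 0.05 in L428 (adjusted p = 0.019 and 0.0147), and the responses differed by 0.62 ± 0.08 (adjusted p = 0.00885). With all arrays RBPJ was lower in untreated L1236 than in untreated L428 by -0.73 ± 0.11 (adjusted p = 0.00141). Between the untreated lines, MAML3 was higher in L1236 by 4.35 ± 0.27 (adjusted p = 4.73e-06). Without the arrays numbered 1, the list gave 8 higher and 0 lower in L1236 and 7 higher and 1 lower in L428, beside the shares of all genes given above for that fit. The count of 6 in L1236 was 1 without treated L1236 array 2, 2 without untreated L1236 array 2 or 3, and 3 without untreated L1236 array 1 or treated L1236 array 3. In L428 the count was 4 without treated L428 array 1, 2 without treated L1236 array 1, and 1 without untreated L428 array 1.

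**Figure D4:**
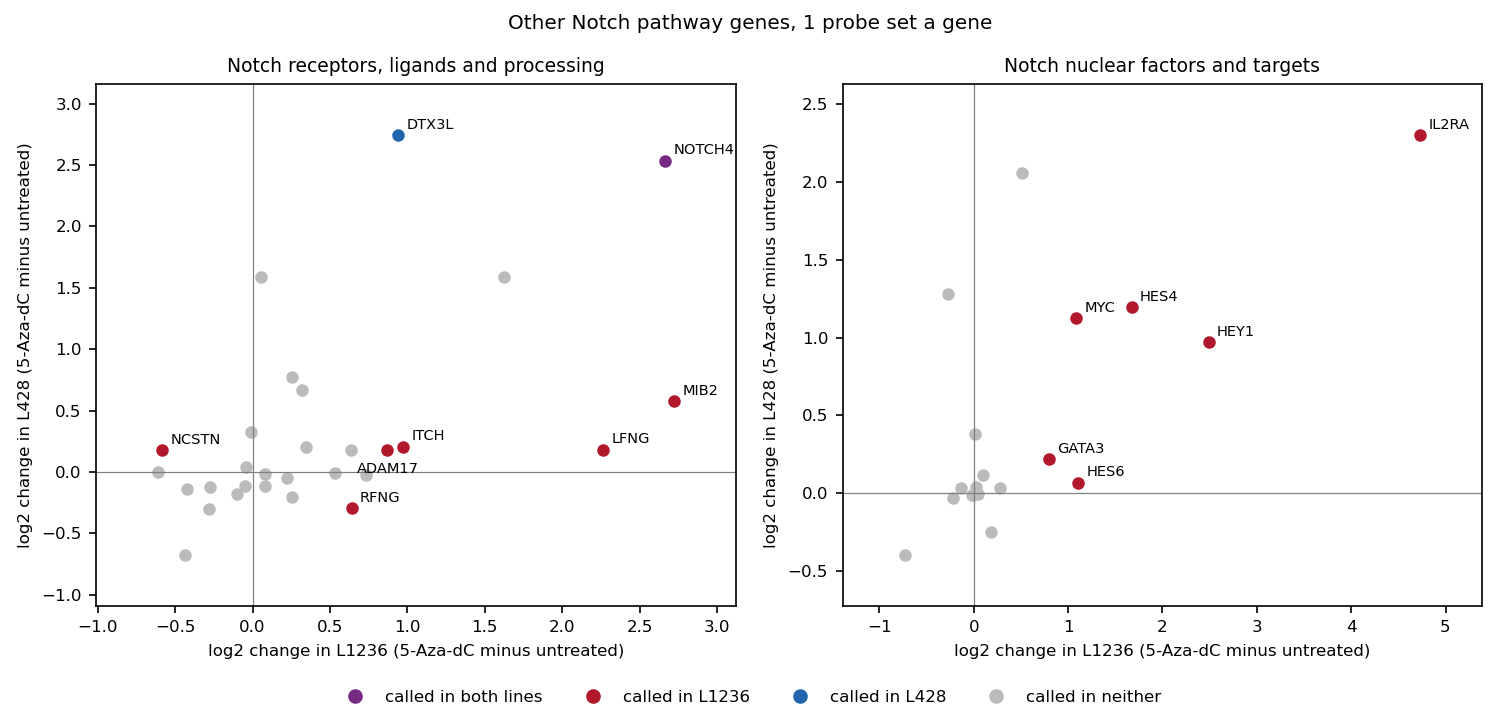
Log2 change after 5-Aza-dC in L428 against that in L1236 for the Notch pathway genes beside the 8 members, 29 receptors, ligands and processing genes on one panel and 19 nuclear factors and targets on the other. Coloured genes were called with all arrays in L1236, in L428 or in both, and NOTCH4 is the one called in both lines.

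The E-protein genes, whose products ID2 and MSC are known to bind, were read within a list of 13 ID, E-protein and related bHLH genes. In L1236, 2 were higher and 0 lower, beside 7.41% and 4.99% of all genes, with a median change of 0.18 against -0.03. In L428 0 were called by limma, beside 2.84% and 1.02% of all genes, with 2 at an unadjusted p under 0.05 and a median of -0.02, the same as that of all genes. BHLHE41 and BHLHE40, repressors that bind E-boxes, rose in L1236 by 4.31 and 1.58. BHLHE41 read 5.79, 8.51 and 8.51 in treated L1236, against 3.87, 2.96 and 3.05 in untreated L1236, without overlap. Both calls held with any 1 array left out. With all arrays the E-protein genes were not called in either line: the difference after treatment was for TCF3 -0.30 ± 0.15 in L1236 and -0.07 ± 0.15 in L428, for TCF4 -0.52 ± 0.16 (adjusted p = 0.0779) and -0.35 ± 0.16, and for TCF12 -0.31 ± 0.11 and 0.03 ± 0.11. ID1, ID3 and ID4 were not called either, and ID1 was lower in untreated L1236 than in untreated L428 by -4.16 ± 0.88 (adjusted p = 0.00804). TCF3 and TCF12 were higher in untreated L1236 by 1.20 ± 0.15 and 0.70 ± 0.11 (adjusted p = 4.18e-04 and 0.00175). In the fit without arrays numbered 1, the list gave 3 higher and 2 lower in L1236 and 2 higher and 1 lower in L428. The lower ones were TCF4 and TCF3 in L1236, by -0.77 ± 0.08 and -0.46 ± 0.07 (adjusted p = 0.00282 and 0.0101), and TCF4 in L428, by -0.35 ± 0.08 (adjusted p = 0.0464). ID1 rose in L1236 there, by 2.04 ± 0.14 (adjusted p = 7.81e-04), and with the array number as a block, by 2.09 ± 0.23 (adjusted p = 0.0167). The counts without the arrays numbered 1, for a list of 13, stand beside 15.6% higher and 16.5% lower of all genes in L1236 and 13% and 12.9% in L428.

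B-cell genes of the E2A, EBF1 and PAX5 programme, which the members are known to oppose, numbered 22 measured. In L1236, 4 were higher and 0 lower, beside 7.41% and 4.99% of all genes, with a median change of 0.15 against -0.03. In L428 1 was higher and 0 lower, beside 2.84% and 1.02%, with a median of 0.04 against -0.02. With the array number as a block, IRF8 rose in L428 beside CR2, by 1.30 ± 0.17 (adjusted p = 0.0407). SPIB, an ETS factor of B cells, rose in L1236 by 6.54 ± 0.31, with 8.68, 9.27 and 9.62 on treated arrays, against 2.44, 3.08 and 2.45 on untreated L1236 arrays. In L428 SPIB was between 8.29 and 9.57 on all arrays, and the difference between the responses was 5.98, with an adjusted p of at most 0.00133 with any 1 array left out. CR2, a complement receptor of mature B cells, rose in L428 by 2.91, with 5.66, 5.79 and 5.71 on treated arrays, against 3.09, 2.59 and 2.76 on untreated L428 arrays. In L1236 it stayed between 2.40 and 2.48, and the difference between the responses was -2.94. The other rises in L1236 were IRF8 (1.64), CD72 (0.97) and LYN (0.45), a transcription factor, a surface receptor and a kinase of B cells.

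The IRF8 call was lost without untreated L1236 array 1 or 3 or treated L1236 array 2 or 3. The LYN call was lost without any 1 untreated L1236 array, treated array 2 or 3 of either line, or untreated L428 array 2, with adjusted p up to 0.0761 for IRF8 and 0.141 for LYN, and that of LYN also without all arrays numbered 1 (adjusted p = 0.0580). PAX5, the B-cell identity factor, had treated minus untreated differences of 0.83 ± 0.28 in L1236 and 1.22 ± 0.28 in L428 (adjusted p = 0.112 and 0.0592) and was not called with all arrays. With the arrays numbered 1 left out it rose in both lines, by 1.18 ± 0.13 in L1236 and 1.58 ± 0.13 in L428 (adjusted p = 0.00301 and 0.00182). MS4A1, which encodes CD20, stayed between 2.43 and 2.59 on all arrays. On arrays 2 and 3 alone, the B-cell list gave 6 higher and 2 lower in L1236, beside 15.6% and 16.5% of all genes, and 4 higher and 2 lower in L428, beside 13% and 12.9%. The lower ones in L1236 were POU2AF1, a coactivator of B cells, by -1.69 ± 0.08 (adjusted p = 2.61e-04), and BLNK, an adaptor of B-cell receptor signalling, by -2.02 ± 0.18 (adjusted p = 0.00157). With all arrays these were -1.18 ± 0.40 and -1.35 ± 0.43 (adjusted p = 0.109 and 0.0974) and were not called. In L428 the lower ones were BLK, a kinase, by -1.98 ± 0.30 and EBF1 by -1.45 ± 0.29 (adjusted p = 0.0114 and 0.0274). The count of 4 in L1236 was 8 without treated L1236 array 1 and 2 without untreated L1236 array 1 or 3 or treated L1236 array 2 or 3, and that of 1 in L428 was 4 without treated L428 array 1.

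Some markers of other cell types rose in L1236 as well. Their counts stand beside 7.41% of all genes higher and 4.99% lower in L1236, and 2.84% and 1.02% in L428. The mean level of 12 stromal, endothelial and epithelial genes was 5.79 to 5.99 in treated L1236, against 4.48 to 4.53 in untreated L1236, and 4.32 to 4.43 in treated L428, against 3.80 to 4.06 in untreated L428. In L1236, 5 of these 12 were higher, among them EPCAM (5.37) and KRT18 (4.75), and 0 lower. In L428, 1 was higher and 0 lower. PECAM1, another of the 12, read 11.58, 10.12 and 9.93 in treated L1236, against 11.18, 11.75 and 11.76 in untreated L1236. The 13 T and NK genes averaged 3.20 to 3.30 in treated L1236, against 2.61 to 2.69 in untreated L1236, and 2.90 to 3.06 in treated L428, against 2.70 to 2.89 in untreated L428. Of these, 2 were higher in L1236 and 1 in L428, while CD3E stayed between 1.74 and 1.77 on all arrays. The 10 myeloid genes averaged 3.81 to 4.21 in treated L1236, against 3.64 to 3.75 in untreated L1236, and 2.76 to 2.89 in treated L428, against 2.66 to 2.78 in untreated L428, with 1 higher in L1236, 0 called in L428, 0 there at an unadjusted p under 0.05, and CD14 between 2.25 and 2.32 throughout. MARCO, 1 of the 10 myeloid genes, lay between 10.9 and 12.2 on all L1236 arrays and between 2.57 and 2.93 on all L428 arrays. The part of the markers of other cell types in the members' values was not tested. In bulk RNA, a change in the share of cells that express a gene and a change in RNA per cell cannot be told apart.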

How the data were processed

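RNA was hybridised to 12 arrays. The deposited table holds log2 values, 1 per probe set and array. The authors made them with RMA (robust multichip averaging), per the submitters' processing notes, and its version is not given in the sources used here. The design text speaks of Human Gene ST arrays, but the identifiers in the table belong to a 3′ array, and the table was followed. How many arrays were normalised together is unknown, and changes that start near the lower end of the scale are uncertain in size. Scanner files were not used here. The platform annotation links 41097 probe sets to 1 gene symbol, 1801 to more than 1 and 11777 to none, and 41043 of the first kind had an Entrez identifier found in the RefSeq table (GRCh38.p14). Control probe sets (62 of 54675) were left out.

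Groups follow the sample descriptions, and array numbers the titles. The treatment was run in triplicate per the labels' protocols, and whether each array is a separate culture is not otherwise stated, so p-values measure the spread between these arrays, which may be technical. limma 3.58.1 in R 4.3.3 fitted 4 group means to the log2 values of all 12 arrays, moderated variances by empirical Bayes, and adjusted p by the Benjamini-Hochberg method over 54613 probe sets. Contrasts were 5-Aza-dC minus untreated in each line, the difference of these, and untreated L1236 minus untreated L428. The test was tried on simulated data. A listed gene is represented by its probe set with the highest mean. The members' probe sets are all reported, and from each of 4 lists and each line up to 4 called genes with the greatest change are named. Genes outside that rule (TCF3, TCF4, TCF12, ID1, RBPJ, MAML3, PAX5, MS4A1, NCSTN, CCND1, POU2AF1, BLNK, BLK, EBF1 and the markers) were named after their values were seen. Members and lists were chosen with earlier results of these data known. Same-numbered treated and untreated arrays deviated together at r of 0.273, 0.169 and 0.188 in L428, and at 0.0690, 0.00485 and 0.109 in L1236. In L428, untreated array 2 with treated array 3 gave 0.172, and untreated array 3 with treated array 2 gave 0.183. There the numbers set apart the arrays numbered 1 and did not pair the others. The labels do not say that the numbers pair arrays, and the main fit used no block. Alternatives were other scalings, array weights, a trend in the prior, dim probe sets left out, 1 probe set a gene, fits within a line, replicate blocks, and arrays left out. The number of arrays limits the precision.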

Additional observations from a re-analysis of the deposited data

Results flagged for a closer look

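MSC (209928_s_at) was picked out because every treated array of L1236 lay above every untreated array of that line, while every treated array of L428 lay below every untreated array of its line. The treated L1236 arrays read 9.85, 9.33 and 9.58, against 8.75, 9.28 and 9.02 in untreated L1236. The treated L428 arrays read 10.66, 10.61 and 10.54, against 10.82, 10.91 and 10.89 in untreated L428. The difference between the responses was 0.85 ± 0.21 (limma adjusted p = 0.0831), and 0.64 without the arrays numbered 1 (adjusted p = 0.0744). Under the other settings its adjusted p for MSC lay between 0.0341, with array weights, and 0.280, with a replicate block within each line.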

How the results depend on the processing

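A total of 23 other settings were tried, and no called change of a member turned its direction. Over the members' changes, 497 values stayed on their side of the threshold with the same direction, 21 gained a call, 14 lost one, and 12 uncalled values changed sign or moved. For the treatment in L1236 (1 of 22 called), the count was 2 with arrays shifted to 1 median, 3 without dim probe sets, 7 with array weights, 7 without the arrays numbered 1, and 0 with only that line's arrays. Leaving out 1 array gave 0 to 2. In L428 (0 called) it was 7 with array weights and 8 without the arrays numbered 1, and 0 to 1 with 1 array left out. For the difference between responses (0 called) the values were 3 and 4 under the same 2 settings, and 0 to 2. Between the untreated lines (8 called) it was 4 of 8 genes with 1 probe set a gene, and 5 to 8 with 1 array left out.

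Notch receptors, ligands and processing genes in L1236 (7 called) gave 16 with array weights, 16 without the arrays numbered 1, 4 within the line, and 4 to 12 with 1 array left out. In L428 (2 called) they gave 10, 10, 1 and 2 to 5. Notch nuclear factors and targets in L1236 (6 called) gave 2 within the line and 1 to 6 with 1 array left out. In L428 (0 called) they gave 2 without dim probe sets, with 1 probe set a gene, or with a trend in the prior, 7 with array weights, 8 without the arrays numbered 1, and 0 to 4 with 1 array left out. ID and E-protein genes in L1236 (2 called) gave 4 with shifted arrays, 7 with array weights, 1 within the line and 5 without the arrays numbered 1. In L428 (0 called) they gave 3 with array weights or without the arrays numbered 1. B-cell genes in L1236 (4 called) gave 8 with shifted arrays, 11 with array weights, 2 within the line, 8 without the arrays numbered 1, and 2 to 8 with 1 array left out. In L428 (1 called) they gave 3 without dim probe sets, 2 with 1 probe set a gene or with a trend, 4 with array weights, 6 without the arrays numbered 1, and 1 to 4 with 1 array left out. The cause of these shifts was not tested.

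Over both lines 9 of 12 arrays matched their own number best. The numbers did not tell arrays 2 and 3 of L428 apart. There, untreated array 2 gave r of 0.172 with treated array 3 and 0.169 with treated array 2. With a replicate block within each line, the L1236 counts were 0 for the members, 4 for the Notch receptor list and 3 for the Notch target list, and the L428 counts were 1 for the Notch targets and 2 for the B-cell genes. The block moved no other L428 count of these lists or of the members. In L1236 it added a call of ID1, higher by 2.09 ± 0.23 (adjusted p = 0.0167), and lost that of LYN (adjusted p = 0.0627). The MSC call in L1236 was lost with either block (adjusted p = 0.181 within the line and 0.0809 shared). With a block shared by both lines, chosen after seeing the data, the members gave 0 in L1236, and in L428 the Notch targets gave 1 and the B-cell genes 2.

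Over all probe sets, L1236 had 2504 higher and 2423 lower, or 50.8% of calls higher, and with arrays shifted to 1 median 3223 and 9888, or 24.6% higher. The totals were 4927 in L1236 with all arrays, 13111 with shifted arrays, 23942 with array weights, 12713 without the arrays numbered 1, 3084 within the line, and 2502 to 8725 with 1 array left out. In L428 they were 1647, 10934 with array weights, 9956 without the arrays numbered 1, 2539 without dim probe sets, 244 within the line, and 717 to 6091 with 1 array left out. For the difference they were 1403, 8098 with weights, 7816 without the arrays numbered 1, 668 with the block within lines, and 733 to 3588. Signal over background limits HES1 and the other probe sets near the array medians.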

Other observations

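For each member whose group means spanned at least 1 on the log2 scale, the 2 genes with the most similar pattern over the 12 arrays were looked up, with 1 probe set a gene. The correlations are descriptions, since the 12 points fall into 4 groups and share their arrays. NOTCH2 was closest to FAM162A (r = 0.981) and NID2 (r = 0.980). MSC was closest to MAPKBP1 (r = 0.982) and GPR183 (r = 0.981), and NOTCH1 to NUS1 (r = 0.960) and CHD7 (r = 0.959). JAG2 was closest to MPHOSPH10 (r = 0.974) and STK17A (r = 0.964), and JAG1 to PLEKHH2 (r = 0.968) and SAMD8 (r = 0.946). ID2 was closest to PIGG (r = 0.955) and CKS2 (r = 0.952). HES1 and MAML2 spanned less than 1 between groups and were not matched.

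In 6 of the 22 probe sets, array 1 lay on the same side of the other 2 arrays in all 4 groups, and both ID2 probe sets were among them. The share of all probe sets with this trait was not counted, so it is not read as particular to the members. For ID2 201565_s_at array 1 was lower by -0.85 in treated L1236, -0.86 in untreated L1236, -1.65 in treated L428 and -0.59 in untreated L428.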
